A study of Mus musculus with 30 samples.

Results

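Glucuronidation, the coupling of glucuronic acid to drugs, bilirubin, bile acids, and steroids, was followed at the transcript level through 10 genes in mouse liver. These genes were taken by their symbols from a table of raw counts for 55335 genes, and all 10 were found there. Of these genes, 3 supply the sugar (Ugp2, Ugdh, and Slc35d1), and the others encode UDP-glucuronosyltransferases, with Ugt1a1 and Ugt1a6b from the Ugt1a locus and Ugt2b1, Ugt2b34, Ugt2b35, Ugt2b36, and Ugt2b5 from the Ugt2b cluster. All 10 passed edgeR's expression filter in each of the 12 comparisons made. The livers came from male wild-type (WT), C151S, and Nrf2-knockout (Nrf2KO) mice on an albino C57BL/6J background, aged 7 to 10 weeks, and were removed 24 hours after a single oral dose of vehicle or of CDDO-Me at 30 µmol/kg. CDDO-Me, or bardoxolone methyl, is a synthetic oleanane triterpenoid that reacts with thiols. C151S mice are homozygous for a knock-in allele of Keap1 in which the cysteine of its name is replaced by serine, and Nrf2-knockout mice are homozygous for a germline disruption, so that both changes are present in every cell type of the liver. WT mice were purchased whereas both mutant lines were bred, and the origin of the mice therefore cannot be told apart from the genotype. Each of the 6 groups had 5 mice, with 1 mRNA library per liver.

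UDP-glucuronosyltransferases are enzymes of the endoplasmic reticulum that face its lumen and transfer glucuronic acid from UDP-glucuronic acid to their substrates. The sugar donor is made in the cytosol, where UGP2 forms UDP-glucose from glucose 1-phosphate and UDP-glucose dehydrogenase (UGDH) oxidizes it, and it is carried into the lumen by transporters that include SLC35D1. The Ugt1a genes each have their own first exon and share their remaining exons, whereas each Ugt2b gene is a complete unit of its own. NRF2 is the transcription factor that KEAP1 marks for degradation, and the cysteine changed in C151S mice is a sensor for electrophiles. NRF2, the aryl hydrocarbon receptor, CAR, PXR, and PPAR-alpha are all known to act on genes of this pathway.

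Between 23667068 and 42073169 counts fell on genes in each library, with a median of 33229925. Expression is given as CPM, the counts of a gene per 1e6 counts of its library after trimmed-mean scaling, and each mean is over 5 mice with its SD. Nfe2l2, which encodes NRF2, was lower under vehicle in Nrf2-knockout mice, at 35.2 ± 4.54 CPM (SD, n = 5), than in WT mice at 66.1 ± 4.15 CPM (SD, n = 5). The log2 difference was -0.89 (SE 0.10, adjusted p = 0.000394 by edgeR), so that the transcript of the disrupted gene was reduced and not absent. The counts do not show the base change of the C151S allele, and Keap1 was at 45.0 ± 6.11 CPM in vehicle-treated C151S mice and at 55.1 ± 7.07 CPM in WT mice (SD, n = 5 each).

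Several libraries stood apart from the others of their group. The clock gene Arntl, singled out after its values were seen, was low in 0 of 10 WT libraries, in 5 of 10 of the C151S genotype (2 under vehicle, 3 under CDDO-Me), and in 6 of 10 of the Nrf2-knockout genotype (3 under each). The low C151S libraries were vehicle replicates 4 and 5 and CDDO-Me replicates 3 to 5, the last numbers of both groups. Those of Nrf2-knockout mice were vehicle replicates 1 to 3 and CDDO-Me replicates 1, 3, and 4. In the Nrf2-knockout groups, counts on genes were 37386596 to 42073169 in replicates 1 to 3 and 27785049 to 31121167 in replicates 4 and 5. Whether this order or that of Arntl follows a batch was not tested. The summed expression of 5 hepatocyte markers (Alb, Apoa1, Ttr, Tat, and Cyp2e1, with Alb the most abundant) ranged from 69285 to 148910 CPM over the CDDO-Me-treated C151S mice, with the lowest value in replicate 1. It ranged from 70601 to 107962 CPM over the CDDO-Me-treated Nrf2-knockout mice, with the lowest value in replicate 2. These 2 libraries were also the lowest of their groups for Ugp2, Ugt2b1, Ugt2b36, and Ugt2b5, and results were recomputed without each mouse, without the libraries with low Arntl, and with the side of Arntl (low or high) as a covariate.

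In WT mice, CDDO-Me raised 8 of the 10 genes, with log2 differences from 0.50 to 1.52, and Ugt1a1 and Ugt2b1 did not pass the test. A gene was called at a false discovery rate (FDR) under 0.05 and an absolute log2 difference of at least 0.5 in edgeR's quasi-likelihood test, and 1.66% of the 13697 genes tested were called higher by this rule. The largest differences were those of Ugdh, Ugt2b35, Slc35d1, and Ugt2b5. The median log2 difference of the 10 genes was 0.62, beside -0.01 for all genes tested. The 10 genes were chosen with earlier results of these data known, so these contrasts with all genes are no test of the pathway. Of the 40 markers of 8 liver cell types and zones tested in the same comparison, 0 were called, and 5 had an unadjusted p under 0.05. The endothelial list held 2 of the latter, and its log2 differences ran from -0.17 to 0.815, with 1 of 5 above 0. The hepatocyte marker Ttr was lower without overlap of the groups, with a log2 difference of -0.37 (adjusted p = 0.0443 by edgeR) that was under the threshold on size. The list medians were -0.36 for periportal markers, of which 0 of 5 were above 0 and 2 had an unadjusted p under 0.05, and -0.11 for bile duct markers, also with 0 of 5 above 0, and the part of cell composition was not tested. The plot of CPM by mouse shows the 10 genes in all 6 groups.

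**Figure D1:**
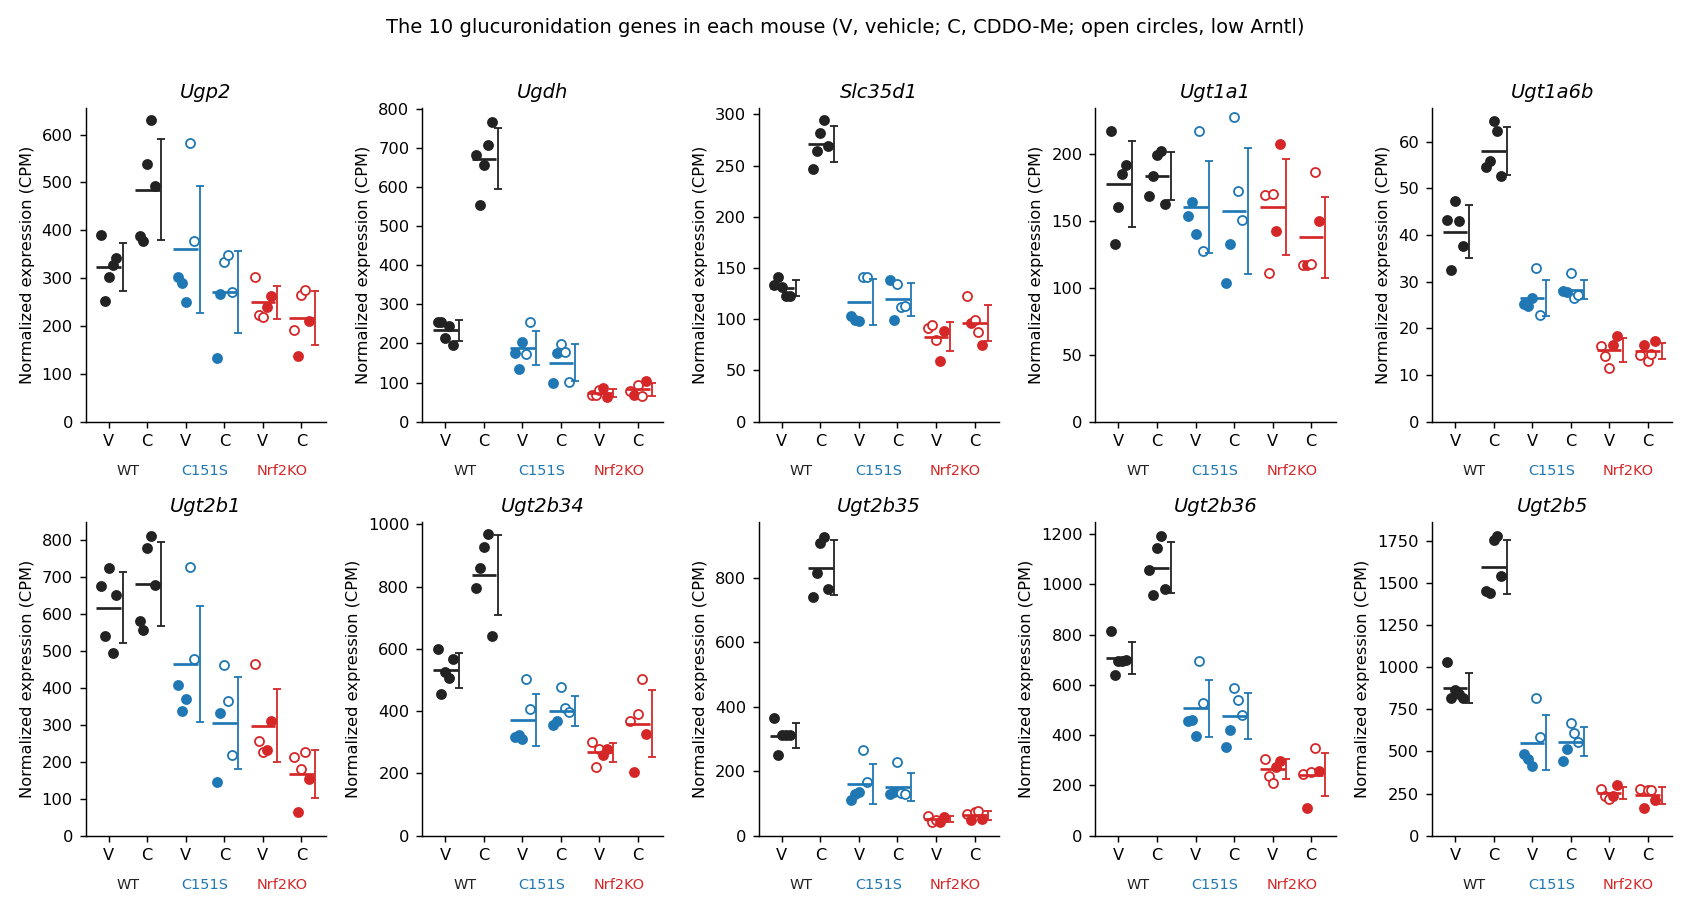
Normalized expression (CPM, linear axis from 0) of the 10 glucuronidation genes in each of 30 mice, by genotype (WT black, C151S blue, Nrf2KO red) and treatment (V vehicle, C CDDO-Me). Circles are mice, open where Arntl was low, horizontal lines are means, and vertical bars are SD (n = 5). For Ugdh, Slc35d1, Ugt1a6b, Ugt2b34, Ugt2b35, Ugt2b36, and Ugt2b5, the CDDO-Me-treated WT mice lie above all other mice, and for Ugt1a1 the 6 groups overlap.

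Among the genes of sugar supply, Ugdh, on chromosome 5 of GRCm38 from 65413221 to 65435949 on the minus strand (ENSMUSG00000029201.14), showed the largest response. Its expression in vehicle-treated WT mice was 254.9, 255.7, 214.4, 244.2, and 196.3 CPM in replicates 1 to 5. In CDDO-Me-treated WT mice it was 680.3, 552.7, 655.9, 708.1, and 765.7 CPM. Every treated mouse was above every vehicle-treated mouse, and the means of 673 ± 78.5 and 233 ± 26.5 CPM (SD, n = 5 each) were 2.89-fold apart. The log2 difference was 1.52 (SE 0.10, adjusted p = 5.08e-06 by edgeR).

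Slc35d1, on chromosome 4 from 103170649 to 103215164 on the minus strand (ENSMUSG00000028521.17), encodes a nucleotide-sugar transporter that carries UDP-glucuronic acid into the endoplasmic reticulum. Vehicle-treated WT mice were at 133.7, 141.2, 131.6, 123.0, and 122.4 CPM. CDDO-Me-treated WT mice were at 246.9, 263.9, 281.7, 294.2, and 269.1 CPM. The groups did not overlap, and their spread was the smallest of the 10 genes in this genotype, with an SD of 6.03% of the mean under vehicle and 6.62% under CDDO-Me. The log2 difference was 1.05 (SE 0.07, adjusted p = 5.07e-06 by edgeR).

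Ugp2, on chromosome 11 from 21321138 to 21371201 on the minus strand (ENSMUSG00000001891.16), acts before Ugdh in the pathway and serves glycogen synthesis as well. Its expression was 390.8, 253.1, 302.6, 328.0, and 341.1 CPM in vehicle-treated and 388.5, 377.4, 537.5, 630.0, and 491.5 CPM in CDDO-Me-treated WT mice. These ranges overlapped. The log2 difference of 0.58 (SE 0.15) passed narrowly, with edgeR's adjusted p at 0.0475. The call was lost in 7 of the 10 fits that left out 1 mouse (vehicle replicates 2 to 5 and CDDO-Me replicates 3 to 5), in which the adjusted p was between 0.0663 and 0.122, and in the fit of all 30 libraries (adjusted p = 0.323).

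Promoter windows of RefSeq (GRCm38.p6, from 250 bases before to 50 after a start site) were searched on both strands for TGACNNNGC, the core of the antioxidant response element to which NRF2 is known to bind. Of 32851 windows, 12.4% hold this motif. A window was found for 9 of the 10 genes, and the motif is present in those of Ugdh and Slc35d1, both genes of sugar supply. The Ugdh window holds it at 132 and 94 bases before the start site, the second on the opposite strand and overlapping GCGTG, the core of the aryl hydrocarbon receptor's element, and the Slc35d1 window holds it 101 bases before. The stretches around these matches are shown 5′ to 3′ on the strand of the gene with the motif in capitals, for Ugdh at chr5:65435908-65435994 and for Slc35d1 at chr4:103215249-103215297, both on the minus strand.
Ugdh: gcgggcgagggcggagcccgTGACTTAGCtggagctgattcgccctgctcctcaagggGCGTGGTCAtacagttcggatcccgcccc
Slc35d1: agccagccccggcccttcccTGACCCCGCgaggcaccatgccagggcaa
No match of these letters was in the windows of Ugp2, Ugt1a1, or the 5 Ugt2b genes, although CDDO-Me also raised Ugp2 and 4 of those 5 in WT mice. GCGTG was found in 32.4% of all windows and, among these genes, in those of Ugdh and Ugp2. A match of letters describes the window and was not tied here to binding.

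Of the Ugt1a genes, Ugt1a6b was called on treatment of WT mice and Ugt1a1 was not, and no test compared their responses. Ugt1a1, on chromosome 1 from 88211959 to 88218997 on the plus strand (ENSMUSG00000089960.1), encodes the enzyme that conjugates bilirubin. It was at 217.1, 132.5, 160.2, 185.2, and 191.5 CPM in vehicle-treated and at 168.5, 183.1, 199.3, 202.4, and 162.5 CPM in CDDO-Me-treated WT mice. The treated mice lay within the range of the vehicle-treated mice, and the log2 difference was 0.04 (SE 0.12, adjusted p = 0.911 by edgeR).

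Ugt1a6b, on chromosome 1 from 88103252 to 88219003 on the plus strand (ENSMUSG00000090145.7), belongs to the UGT1A6 enzymes that act on simple phenols. Vehicle-treated WT mice were at 43.2, 32.5, 47.3, 43.0, and 37.6 CPM, and CDDO-Me-treated mice at 54.6, 55.8, 64.5, 62.3, and 52.7 CPM. All treated mice were above all vehicle-treated mice. The log2 difference of 0.50 (SE 0.10, adjusted p = 0.0116 by edgeR) lay at the threshold of 0.5, and it was between 0.43 and 0.48 in the 4 fits in which leaving out a mouse (vehicle replicate 2 or 5, CDDO-Me replicate 3 or 4) ended the call, which upper-quartile normalization and a minimum of 10 counts in every library ended as well. Reads in the exons that the Ugt1a genes share were not counted for any of them, so that at most 938 of 2382 exonic bases of Ugt1a6b and 913 of 2224 of Ugt1a1 could collect counts. Near copies reduce this further for Ugt1a6b, since 80.7% of the 50-base words of its transcript are found in another gene, beside 58.2% for Ugt1a1.

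The Ugt2b genes lie next to each other on chromosome 5 and encode enzymes for steroids, bile acids, and drugs. Ugt2b35 (chromosome 5, 87000860 to 87013275, plus strand, ENSMUSG00000035811.10) was at 363.4, 251.4, 313.1, 313.3, and 310.7 CPM in vehicle-treated WT mice. After CDDO-Me it was at 739.3, 815.0, 908.4, 926.5, and 765.3 CPM. The lowest treated mouse was more than 2-fold above the highest vehicle-treated mouse, and the log2 difference was 1.41 (SE 0.10, adjusted p = 7.79e-06 by edgeR).

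Ugt2b5 (chromosome 5, 87124960 to 87140318, minus strand, ENSMUSG00000054630.7) had the highest CPM of the 10 genes in WT mice. Vehicle-treated WT mice were at 1030, 817.7, 862.6, 840.2, and 817.2 CPM, and CDDO-Me-treated mice at 1453, 1440, 1751, 1777, and 1539 CPM. Their log2 difference was 0.86 (SE 0.09, adjusted p = 0.000242 by edgeR). Replicate 1 of the vehicle-treated mice was the highest of its group also for Ugp2, Ugt1a1, Ugt2b34, Ugt2b35, and Ugt2b36, and its library had the fewest counts on genes (23667068), the lowest share of reads on genes (65.9%), and the highest share of reads with several positions (16.9%) of the 30. Stretches of 50 bases of the Ugt2b5 transcript are found in another gene for 41.7% of its positions, mostly in Ugt2b38, so that only part of its reads has a single position.

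The other Ugt2b genes had smaller log2 differences in WT mice, and no test compared the genes with each other. Ugt2b34 (chromosome 5, 86889767 to 86906937, minus strand, ENSMUSG00000029260.15) was at 531 ± 55.5 CPM under vehicle and rose to 838 ± 128 CPM (SD, n = 5 each), a change of 0.65 in log2 (SE 0.11, adjusted p = 0.00612 by edgeR). Ugt2b36 (chromosome 5, 87065927 to 87092555, minus strand, ENSMUSG00000070704.10) was at 708 ± 64.6 CPM and rose to 1067 ± 102 CPM, by 0.58 (SE 0.09, adjusted p = 0.0024), a call that was lost in the fit of all 30 libraries (adjusted p = 0.181). In neither gene did the treated and the vehicle-treated mice overlap. Ugt2b1 (chromosome 5, 86916638 to 86926530, minus strand, ENSMUSG00000035836.2), the only one of the 5 without a call, was at 616 ± 95.6 CPM under vehicle and 680 ± 113 CPM under CDDO-Me (SD, n = 5 each), with a log2 difference of 0.13 (SE 0.13, adjusted p = 0.684).

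All 5 Ugt2b promoter windows, responding or not, share an element that was searched for after the windows had been read. It consists of GTTA, 5 bases of any kind, and TAAC and begins 61 to 89 bases before the start site. These letters are found in 0.332% of the 32851 windows and in 8 of the 20 windows of Ugt genes. The stretches are shown 5′ to 3′ on the strand of each gene, in GRCm38.p6, with the element in capitals.
Ugt2b1, chr5:86926560-86926612: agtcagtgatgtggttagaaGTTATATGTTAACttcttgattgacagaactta
Ugt2b34, chr5:86906978-86907030: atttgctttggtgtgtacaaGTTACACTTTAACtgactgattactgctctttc
Ugt2b35, chr5:87000770-87000822: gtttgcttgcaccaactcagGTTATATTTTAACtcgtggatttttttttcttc
Ugt2b36, chr5:87092587-87092639: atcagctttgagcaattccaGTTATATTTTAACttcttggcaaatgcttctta
Ugt2b5, chr5:87140369-87140421: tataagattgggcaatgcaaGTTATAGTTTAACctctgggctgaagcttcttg
Ugt2b35 and Ugt2b36 have the same 13 bases at this place.

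CDDO-Me raised or lowered 0 of the 10 genes by the same rule in C151S mice and 0 of 10 in Nrf2-knockout mice. Of all genes tested, 0.0920% were called in C151S mice and 0% in Nrf2-knockout mice, where 1136 genes had an unadjusted p under 0.05 and DESeq2 called 43. At an unadjusted p under 0.05 there were 0 of the 10 genes in C151S mice and 1, Ugt2b1, in Nrf2-knockout mice, and DESeq2 called 0 of the 10 in both genotypes. The median log2 differences of the 10 genes were -0.06 in C151S and -0.06 in Nrf2-knockout mice.

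Ugdh was at 175.2, 134.7, 202.8, 172.6, and 254.0 CPM in vehicle-treated C151S mice and at 97.6, 174.7, 199.3, 177.4, and 101.2 CPM after CDDO-Me. In Nrf2-knockout mice it was at 67.3, 68.6, 81.2, 86.3, and 63.8 CPM under vehicle and at 78.0, 68.3, 94.4, 66.4, and 105 CPM after CDDO-Me. The treated and vehicle-treated mice overlapped in both genotypes, with log2 differences of -0.33 (SE 0.23) and 0.16 (SE 0.15). Slc35d1 was at 103.2, 99.6, 98.8, 141.4, and 141.2 CPM in vehicle-treated and at 138.2, 99.5, 134.1, 112.2, and 113.4 CPM in CDDO-Me-treated C151S mice. The 2 highest vehicle-treated C151S mice were the 2 with low Arntl.

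Ugt2b35 was at 111.2, 127.8, 135.3, 266.3, and 165.6 CPM in vehicle-treated C151S mice and at 130.7, 136.5, 229.1, 131.5, and 130.4 CPM after CDDO-Me. In Nrf2-knockout mice it was at 61.4, 41.0, 50.2, 42.6, and 58.6 CPM under vehicle and at 67.1, 48.5, 72.3, 77.4, and 50.6 CPM after CDDO-Me. A single C151S mouse in each treatment group stood above the other 4, replicate 4 under vehicle and replicate 3 under CDDO-Me, and both belonged to the mice with low Arntl. The log2 differences were -0.09 (SE 0.24) in C151S and 0.31 (SE 0.16) in Nrf2-knockout mice, and neither passed the test.

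Ugt2b1 had the most negative log2 difference of the 10 genes in both mutant genotypes. It was at 464.7, 257.0, 225.6, 230.6, and 310.2 CPM in vehicle-treated and at 211.3, 63.7, 180.2, 226.2, and 153.2 CPM in CDDO-Me-treated Nrf2-knockout mice. The log2 difference was -0.84 (SE 0.31, unadjusted p = 0.0198, adjusted p = 0.582 by edgeR), and it was -0.61 (SE 0.30, adjusted p = 0.383) in C151S mice. Replicate 2 of the CDDO-Me-treated Nrf2-knockout mice was the lowest of these mice and the one with the lowest hepatocyte marker sum.

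**Figure D2:**
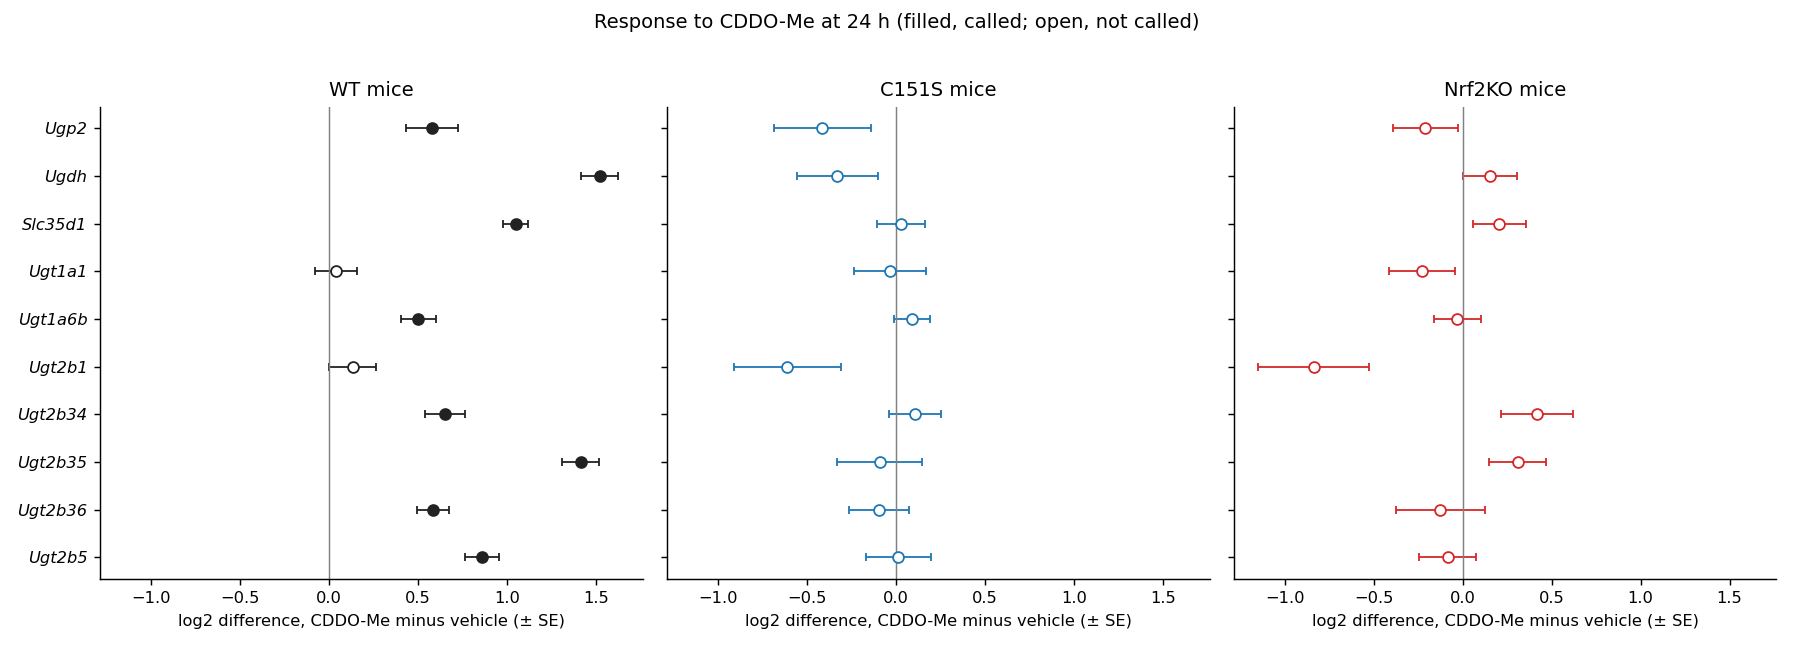
The log2 difference between CDDO-Me-treated and vehicle-treated mice for the 10 genes in WT (black), C151S (blue), and Nrf2KO (red) mice. Points are estimates of edgeR, bars are SE, filled points were called, and open points were not. In WT mice 8 points are filled, and in C151S and Nrf2KO mice 0 are.

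Whether the response itself differed between genotypes was tested as a contrast in a fit of all 30 libraries, at an FDR of 0.05. The response of WT mice exceeded that of C151S mice for 3 of the 10 genes, Ugdh, Slc35d1, and Ugt2b35, beside 0.386% of 15010 genes tested. It exceeded that of Nrf2-knockout mice for 2 of 10, Ugdh and Slc35d1, beside 0.240%. Between C151S and Nrf2-knockout mice 0 of 10 differed, beside 0.0133% of all genes, with 0 of 10 at an unadjusted p under 0.05 and 0 called by DESeq2.

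For Ugdh, the log2 response of WT mice was larger by 1.85 (SE 0.26, adjusted p = 0.000108 by edgeR) than the C151S response and by 1.36 (SE 0.25, adjusted p = 0.00799) than the Nrf2-knockout response. For Slc35d1 it was larger by 1.02 (SE 0.19, adjusted p = 0.00362) and by 0.84 (SE 0.19, adjusted p = 0.0408). The latter call was lost in 15 of 20 fits without 1 mouse, with an adjusted p from 0.0504 to 0.0846. For Ugt2b35 the difference from C151S mice was 1.51 (SE 0.28, adjusted p = 0.00362), and that from Nrf2-knockout mice was 1.10 (SE 0.28, adjusted p = 0.0972). For Ugt2b5 the differences were 0.85 (SE 0.22, adjusted p = 0.105) and 0.94 (SE 0.22, adjusted p = 0.0665). A fit of the 4 groups concerned alone called Ugt2b35 (adjusted p = 0.0105) and Ugt2b5 (adjusted p = 0.0282) different between WT and Nrf2-knockout mice as well. Among libraries with high Arntl alone, the calls for Ugdh (difference 1.33, adjusted p = 0.177) and Slc35d1 (0.86, adjusted p = 0.148) against Nrf2-knockout mice and for Slc35d1 against C151S mice (0.81, adjusted p = 0.0981) were lost, with fewer mice in the fit, and Ugt2b35 (adjusted p = 0.00304) and Ugt2b5 (adjusted p = 0.00621) were called against Nrf2-knockout mice in their place. With the side of Arntl as a covariate, Ugt2b35 (adjusted p = 0.0143) and Ugt2b5 (adjusted p = 0.00724) were called against Nrf2-knockout mice and Ugt2b5 (adjusted p = 0.0121) against C151S mice. For Ugp2, Ugt1a1, Ugt1a6b, Ugt2b1, Ugt2b34, and Ugt2b36 no difference between responses passed the test.

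Under vehicle, the 10 genes were lower in Nrf2-knockout than in WT mice in 8 cases, with log2 differences from -0.64 to -2.60, while Ugp2 and Ugt1a1 did not pass the test. Of all genes tested, 4.13% were called lower. The mice used for this comparison are those of the WT response above, so that the vehicle-treated WT mice enter both. All 8 calls held in each of the 10 fits without 1 mouse and among the libraries with high Arntl alone. In the Nrf2-knockout livers some markers of other cell types were also called higher under vehicle, namely 3 of 5 endothelial markers (Stab2, Lyve1, and Pecam1) and 2 of 5 markers of stellate cells or fibroblasts (Col1a1 and Col3a1). Of 5 markers of pericentral hepatocytes 1, Oat, was called lower (log2 difference -0.92) and 4 were below 0, with a list median of -0.54 and summed expression of 1084 ± 420 CPM beside 1769 ± 162 CPM in WT mice. The summed expression of the endothelial list was 233 ± 46.1 CPM in Nrf2-knockout and 154 ± 11.1 CPM in WT mice, and that of the hepatocyte list 115444 ± 4347 and 101876 ± 8092 CPM (SD, n = 5 each). In bulk tissue, fewer cells of a type and less RNA per cell cannot be told apart. The vehicle-treated groups also differed in the share of reads counted on genes, which was 65.9% to 74.5% in WT and 76.0% to 80.2% in Nrf2-knockout libraries, and in the share of reads with several positions, 13.6% to 16.9% and 10.6% to 13.3%. The part of cell composition and of these shares in the result was not tested.

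Ugt2b35 showed the largest genotype difference, with 50.7 ± 9.18 CPM in vehicle-treated Nrf2-knockout and 310 ± 39.7 CPM in WT mice (SD, n = 5 each). Its log2 difference was -2.60 (SE 0.14, adjusted p = 1.32e-06 by edgeR). Ugt2b5 followed, at 252.5 ± 34.4 beside 873 ± 89.3 CPM, with a log2 difference of -1.77 (SE 0.11, adjusted p = 5.51e-06). Ugdh was at 73.4 ± 9.74 beside 233 ± 26.5 CPM, with a log2 difference of -1.65 (SE 0.12, adjusted p = 1.61e-05). For these 3 genes every Nrf2-knockout mouse was below every WT mouse.

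Ugt2b36 and Ugt1a6b had log2 differences of -1.40 (SE 0.11) and -1.39 (SE 0.14) in vehicle-treated Nrf2-knockout mice. Ugt2b1 differed by -1.04 (SE 0.19) and Ugt2b34 by -0.97 (SE 0.10), and Ugt2b1 had not passed the test for CDDO-Me in WT mice. Slc35d1 differed by -0.64 (SE 0.11, adjusted p = 0.0046 by edgeR). Ugp2 was at 249 ± 34.2 beside 323 ± 50.7 CPM (log2 difference -0.36, adjusted p = 0.0651). Ugt1a1 was at 160 ± 35.9 beside 177 ± 32.2 CPM (log2 difference -0.13, adjusted p = 0.616).

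In vehicle-treated C151S mice 4 of the 10 genes were lower than in WT mice, Ugt1a6b, Ugt2b34, Ugt2b35, and Ugt2b5, beside 2.25% of all genes tested. The log2 differences were -0.61 (SE 0.12) for Ugt1a6b, -0.50 (SE 0.13) for Ugt2b34, -0.94 (SE 0.20) for Ugt2b35, and -0.65 (SE 0.16) for Ugt2b5, with edgeR's adjusted p from 0.0105 to 0.0391. Each of these genes had 1 or more C151S mice within the range of WT mice. With 1 mouse left out, 1 gene (without C151S vehicle replicate 2), 2 genes (without C151S vehicle replicate 1 or 3 or WT vehicle replicate 1, 3, 4, or 5), 4 genes, or 6 genes (without C151S vehicle replicate 4, the highest C151S mouse for each of these genes) were called. Ugt2b34 and Ugt2b5 each lost the call in 7 of 10 such fits, Ugt2b35 in 1, and Ugt1a6b in 0, and that of Ugt2b34 was also lost with upper-quartile normalization, with at least 10 counts in every library, and in the fit of all 30. Among libraries with high Arntl, 6 genes were called. Of the markers, Spp1 of the bile duct list was called lower (log2 difference -0.83) and Sds of the periportal list higher (1.06), 4 of 5 periportal and 4 of 5 endothelial markers had an unadjusted p under 0.05, and the part of cell composition was not tested. The share of reads counted on genes was 72.3% (replicate 4) to 78.4% in these C151S libraries and 65.9% to 74.5% in those of WT mice. Its part in these differences was not tested. None of the 3 genes of sugar supply was called. Their log2 differences were 0.16 (SE 0.20) for Ugp2, -0.30 (SE 0.15) for Ugdh, and -0.15 (SE 0.11) for Slc35d1. Ugt2b36 (log2 difference -0.47, adjusted p = 0.0471 by edgeR) passed the FDR and was just under the threshold on size. Ugt2b1 (-0.40) and Ugt1a1 (-0.13) passed neither.

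**Figure D3:**
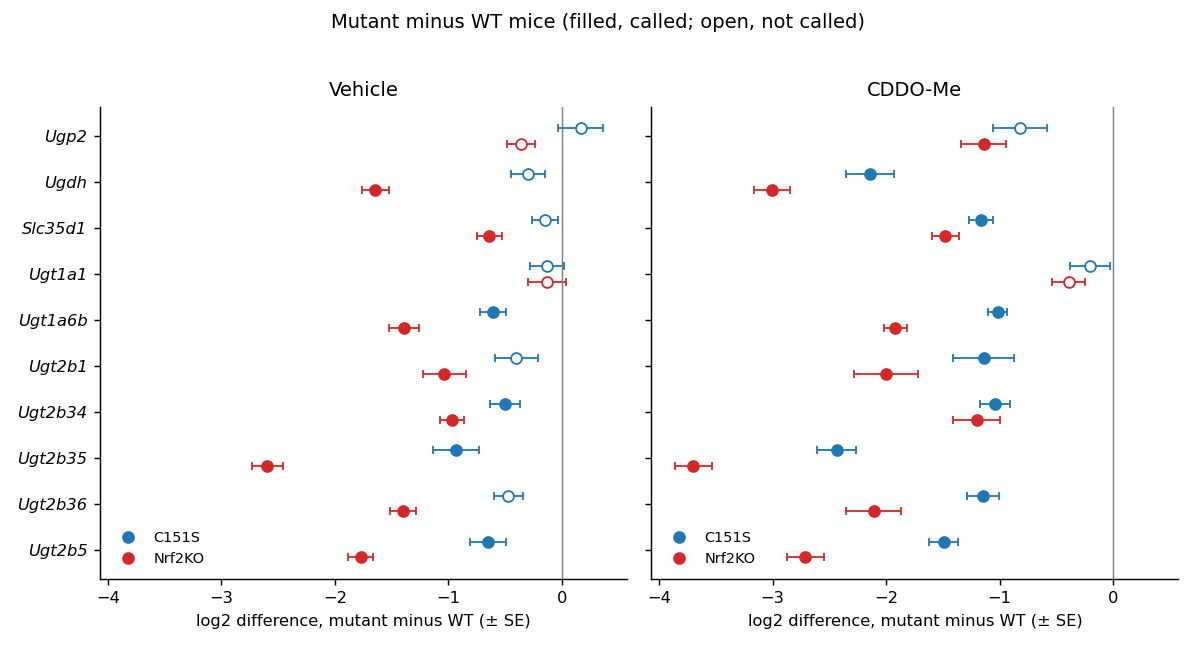
The log2 difference from WT mice for the 10 genes in C151S (blue) and Nrf2KO (red) mice under vehicle (left) and CDDO-Me (right). Points are estimates of edgeR, bars are SE, and filled points were called. Under vehicle 4 genes were called lower in C151S and 8 in Nrf2KO mice, and under CDDO-Me 8 and 9.

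Among CDDO-Me-treated mice, 8 of the 10 genes were lower in C151S than in WT mice, beside 2.80% of all genes tested, and 9 of 10 were lower in Nrf2-knockout mice, beside 4.85%. Ugt1a1 was called in neither, but was called lower in Nrf2-knockout mice (log2 difference -0.53, adjusted p = 0.0183) when Nrf2-knockout CDDO-Me replicate 4 was left out. Ugt2b35 was at 831 ± 83.8 CPM in WT mice, at 152 ± 43.4 CPM in C151S mice, and, lowest, at 63.2 ± 12.99 CPM in the Nrf2-knockout group (SD, n = 5 each). This is a log2 difference from WT mice of -2.44 (SE 0.17) and -3.70 (SE 0.16), where edgeR's adjusted p was 1.42e-05 and 3.87e-08. Ugdh differed from WT mice by -2.14 (SE 0.21) in C151S and by -3.01 (SE 0.16) in Nrf2-knockout mice, and Ugt2b5 by -1.49 (SE 0.13) and -2.71 (SE 0.16). Ugp2 was called in Nrf2-knockout mice (log2 difference -1.14, adjusted p = 0.00376). In C151S mice its log2 difference of -0.82 had an adjusted p of 0.0592, and it was called with C151S CDDO-Me replicate 1 left out (0.0258), by DESeq2 (0.0111), without a filter on low counts (0.037), and in the fit of all 30 libraries (0.0181). Ugt2b1 was called in C151S mice (log2 difference -1.14, adjusted p = 0.0272), and the call was lost without C151S CDDO-Me replicate 5 or WT CDDO-Me replicate 1, 3, or 4 and among libraries with high Arntl alone (log2 difference -1.50, adjusted p = 0.0515). Every WT mouse was above every mutant mouse for each gene other than Ugt1a1. In the same comparisons the hepatocyte marker Tat (log2 difference 1.06) and the periportal marker Sds (1.52) were called higher in C151S mice, with a periportal list median of 0.72. The periportal markers Sds and Gls2, the endothelial marker Pecam1, and the stellate cell or fibroblast marker Col3a1 were called higher in Nrf2-knockout mice, with list medians of 0.66 for periportal and -0.52 for pericentral markers, 0 of 5 of the latter above 0. The part of cell composition or zonation in these differences was not tested.

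C151S and Nrf2-knockout mice were compared with each other at both treatments. Under vehicle 5 of the 10 genes were higher in C151S mice, Ugdh, Ugt1a6b, Ugt2b35, Ugt2b36, and Ugt2b5, beside 0.307% of all genes tested. Under CDDO-Me 3 were higher, Ugt1a6b, Ugt2b35, and Ugt2b5, beside 0.127%. Ugdh was at 188 ± 44.2 CPM in vehicle-treated C151S and at 73.4 ± 9.74 CPM in Nrf2-knockout mice, a log2 difference of 1.35 (SE 0.16, adjusted p = 0.00331 by edgeR). Ugt2b35 was at 161 ± 61.9 and 50.7 ± 9.18 CPM, a log2 difference of 1.66 (SE 0.22, adjusted p = 0.00663). After CDDO-Me the log2 difference of Ugt2b35 was 1.26 (SE 0.20, adjusted p = 0.0272) and that of Ugdh 0.86 (SE 0.22, adjusted p = 0.293). Of the 40 markers 0 were called at either treatment. Under vehicle the bile duct list had a median of -0.81, with 0 of 5 markers above 0, 4 at an unadjusted p under 0.05, and its summed CPM was 23.3 ± 3.91 for C151S livers beside 43.8 ± 14.5 for Nrf2-knockout livers (SD, n = 5 each). The pericentral list had a median of 0.40, with 4 of 5 above 0 and 2 at an unadjusted p under 0.05, and 2 stellate cell or fibroblast markers, Col1a1 and Col3a1, and 1 endothelial marker, Pecam1, were at an unadjusted p under 0.05 with log2 differences below 0. Under CDDO-Me the hepatocyte markers Tat (0.51) and Cyp2e1 (0.99) had an unadjusted p under 0.05. The part of cell composition was not tested.

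These counts depended on single mice. Under vehicle, 2 genes were called without Nrf2-knockout vehicle replicate 2 or 3, 3 without C151S vehicle replicate 1, 2, or 5, and 4 or 5 without any other single mouse. Under CDDO-Me, 1 gene was called without C151S CDDO-Me replicate 4 or Nrf2-knockout CDDO-Me replicate 5, and 2 or 3 without any other. DESeq2 and the fit of all 30 libraries also called Ugdh and Ugt2b36 under CDDO-Me. Among the libraries with high Arntl, 3 C151S and 2 Nrf2-knockout mice under vehicle and 2 of each under CDDO-Me, 0 genes were called. The log2 differences under vehicle were then 1.18 for Ugdh, 1.31 for Ugt2b35, and 0.76 for Ugt2b5 (1.12 with all mice). They were 0.62 for Ugt2b36 (0.94) and 0.55 for Ugt1a6b (0.79). Under CDDO-Me they were larger for Ugt2b35 (1.44, and 1.26 with all mice) and Ugt2b5 (1.34 and 1.22). For Ugt1a6b the CDDO-Me value was smaller (0.74 and 0.90). These fits have both fewer mice and a single side of Arntl. With the side of Arntl as a covariate, 5 genes were called under vehicle and 3 under CDDO-Me.

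Levels of different genes were compared as CPM per kilobase of exon that no other gene overlaps on its strand, a length that joins all annotated transcripts of a gene and does not allow for near copies elsewhere. The levels and places of Ugt1a6b and Ugt2b5 are uncertain for their near copies, and those of Ugdh and Slc35d1 for their length, since these 2 genes have 6594 and 8528 such bases while single transcripts of them have 2550 and 4242. In vehicle-treated WT mice the order was Ugt2b5 (470 ± 48.1 CPM per kilobase), Ugt2b36 (344 ± 31.4), Ugt2b1 (239.5 ± 37.2), Ugt1a1 (194 ± 35.3), Ugt2b34 (123 ± 12.9), Ugp2 (105 ± 16.5), Ugt2b35 (92.4 ± 11.8), Ugt1a6b (43.4 ± 6.12), Ugdh (35.4 ± 4.02), and Slc35d1 (15.3 ± 0.922), each with SD and n = 5. Neighbours whose intervals of mean ± SD overlap were Ugt2b1 and Ugt1a1, Ugt2b34 and Ugp2, Ugp2 and Ugt2b35, and Ugt1a6b and Ugdh. After CDDO-Me, Ugt2b35 was at position 4 in WT mice with 247 ± 24.95 CPM per kilobase, closer than its SD to Ugt2b1 at 264.2 ± 44.0. In vehicle-treated Nrf2-knockout mice the order began with Ugt1a1 (175 ± 39.3), followed by Ugt2b5 (136 ± 18.5) with an overlapping interval.

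Over 22 Ugt genes of the table, the summed level was 1871 ± 191 CPM per kilobase in vehicle-treated and 2706 ± 275 in CDDO-Me-treated WT mice (SD, n = 5 each). It was 1434 ± 320 and 1274 ± 283 in C151S and 940 ± 135 and 829 ± 206 in Nrf2-knockout mice, for vehicle and CDDO-Me in turn. The 7 Ugt2b genes made up 68.25 ± 1.65% of this sum in vehicle-treated WT mice, 76.95 ± 1.06% in CDDO-Me-treated WT mice, and 49.0 ± 2.67% in vehicle-treated Nrf2-knockout mice. Ugt1a1 alone made up 10.3 ± 1.13%, 7.42 ± 0.306%, and 18.6 ± 2.92% of it in the same 3 groups, although its own level was 194, 201, and 175 CPM per kilobase. No test was run on these shares, which rest on the members' values given above.

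**Figure D4:**
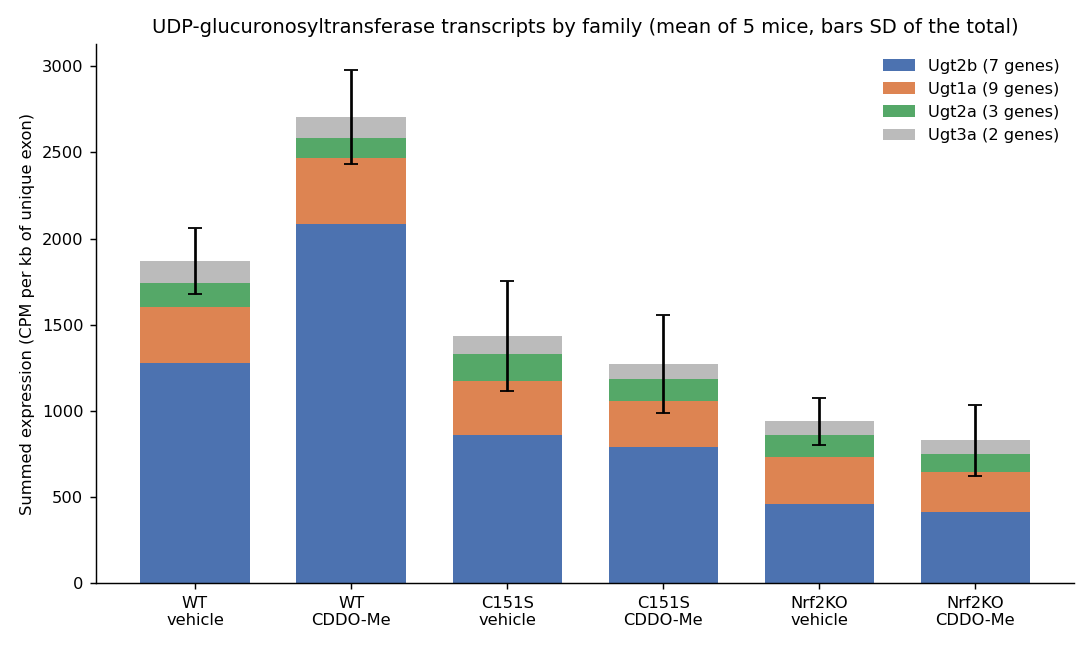
Summed expression of Ugt genes (CPM per kilobase of unique exon, axis from 0) in the 6 groups, stacked by family as means of 5 mice, with SD bars for the sum of 22 genes. Ugt8a, with a mean of 0.126 CPM in vehicle-treated WT mice, is in the sum and not drawn. The Ugt2b part was 1276 in vehicle-treated and 2083 in CDDO-Me-treated WT mice, and the Ugt1a part 329 and 383.

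Of the other 15 UDP-glucuronosyltransferase genes 11 were tested in WT mice, and 0 were called higher and 2 lower after CDDO-Me. Their log2 differences ranged from -2.15 to 0.74 with a median of 0.02, 6 were above 0, and 6 had an unadjusted p under 0.05. No test compared them with the 10 genes, which were chosen with earlier results known. The 2 lower genes were Ugt2b37 (1.45 to 0.419 CPM) and Ugt2b38 (10.9 to 2.47 CPM), which are expressed far below their neighbour Ugt2b5 and share part of their sequence with it. The call of Ugt2b37 was lost in 2 of 10 fits without 1 mouse and that of Ugt2b38 in the fit of all 30 libraries. Ugt1a9, an enzyme for phenols and fatty acids, was at 41.3 ± 12.1 and 58.6 ± 11.1 CPM (log2 difference 0.50, adjusted p = 0.186). Under vehicle Ugt1a9 was higher in C151S mice (64.8 ± 4.999 CPM) than in WT mice, with a log2 difference of 0.67 (adjusted p = 0.0414 by edgeR), and this call was lost in 7 of 10 fits without 1 mouse and in the fit of all 30. In the same comparison Ugt2b38 was lower in C151S mice (2.99 CPM), with a log2 difference of -1.86 (adjusted p = 0.0112), a call that held in each of 10 fits without 1 mouse and was lost in the fit of all 30. Ugt2a3 was at 293 ± 22.1 and 254 ± 32.4 CPM, and Ugt3a2 at 336.5 ± 49.1 and 321 ± 44.4 CPM, neither of them called. Ugt2a1 and Ugt2a2, which share most of their sequence, so that few of their reads could be counted, had a count of 0 in every library, which allows up to 0.1268 CPM (3 counts in the smallest library, counting error only). In vehicle-treated Nrf2-knockout mice 3 of 10 tested were lower than in WT mice, Ugt1a7c, Ugt3a1, and Ugt3a2, and the call of Ugt3a1 was lost in 7 of 10 fits without 1 mouse, among libraries with high Arntl, which also ended that of Ugt1a7c, and in the fit of all 30. Among CDDO-Me-treated mice, 2 of 10 tested were lower in C151S than in WT mice, Ugt1a6a and Ugt2b38, beside 2.80% of all genes. In Nrf2-knockout mice 5 were lower, Ugt1a6a, Ugt1a7c, Ugt1a9, Ugt1a10, and Ugt3a2, beside 4.85%, and 1 was higher, Ugt2b37. Without 1 mouse, Ugt2b38 lost its call in 4 of 10 fits, Ugt1a9 in 8, and Ugt3a2 in 6. High Arntl alone ended the calls of Ugt2b38, Ugt1a9, Ugt1a10, and Ugt2b37, and the fit of all 30 those of Ugt2b38 and Ugt1a9.

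In 3 lists of genes before and beside the pathway 0 genes were called on treatment of WT mice. Of 15 genes for the making of UDP-glucose and for its other uses, which include glycogen synthesis and the galactose pathway, 0 were called, with a median log2 difference of 0.03. Of 8 genes tested for release and breakdown of glucuronate 0 were called, with a median of 0.11, and of 9 genes for sulfation, the conjugation that competes for phenols and steroids, 0 were called, with a median of -0.27. At an unadjusted p under 0.05 there were 4, 3, and 5 genes of these lists, beside 2327 of 13697 genes tested. Akr1a1, which reduces glucuronate, and Cryl1, which acts after it, were lower in vehicle-treated Nrf2-knockout mice by log2 differences of -0.58 and -0.96, and the call of Akr1a1 was lost with upper-quartile normalization. Glycogen synthase 2 (Gys2) was higher there, by 1.04, and this call was lost in 7 of 10 fits without 1 mouse, among libraries with high Arntl alone, and in the fit of all 30.

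Glucuronides leave the hepatocyte through transporters of the ABCC family, and 3 of 7 carriers were called higher in CDDO-Me-treated WT mice. Abcc3, which exports glucuronides to the blood, was at 425.5, 343.3, 339.4, 325.7, and 338.2 CPM under vehicle and at 539.5, 580.1, 803.4, 750.9, and 836.6 CPM after CDDO-Me, with a log2 difference of 0.98 (adjusted p = 0.000935 by edgeR). Abcc4, also a basolateral exporter, rose from 4.46 ± 1.33 to 17.1 ± 6.98 CPM, a log2 difference of 1.94. Abcc2, the exporter to bile, rose from 773 ± 72.3 to 1288 ± 217 CPM, a log2 difference of 0.73. In vehicle-treated Nrf2-knockout mice 3 of 7 carriers were lower than in WT mice, Abcc3, Abcg2, and Abcc4, beside 4.13% of all genes tested. Abcc3 was at 79.8 ± 27.9 CPM, a log2 difference from WT mice of -2.13, and Abcc2 at 556.5 ± 118 CPM without a call. Abcg2 differed by -0.90 and Abcc4 by -0.79. The call of Abcc4 was lost in 9 of 10 fits without 1 mouse, with upper-quartile normalization, and among libraries with high Arntl alone. The response of Abcc4 in WT mice exceeded that of C151S mice by 1.88 (adjusted p = 0.0104) and that of Nrf2-knockout mice by 1.93 (adjusted p = 0.015), calls that were both lost among libraries with high Arntl alone. In C151S and Nrf2-knockout mice 0 of 7 carriers were called after CDDO-Me. Treated and vehicle-treated WT mice did not overlap for Abcc2, Abcc3, or Abcc4.

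**Figure D5:**
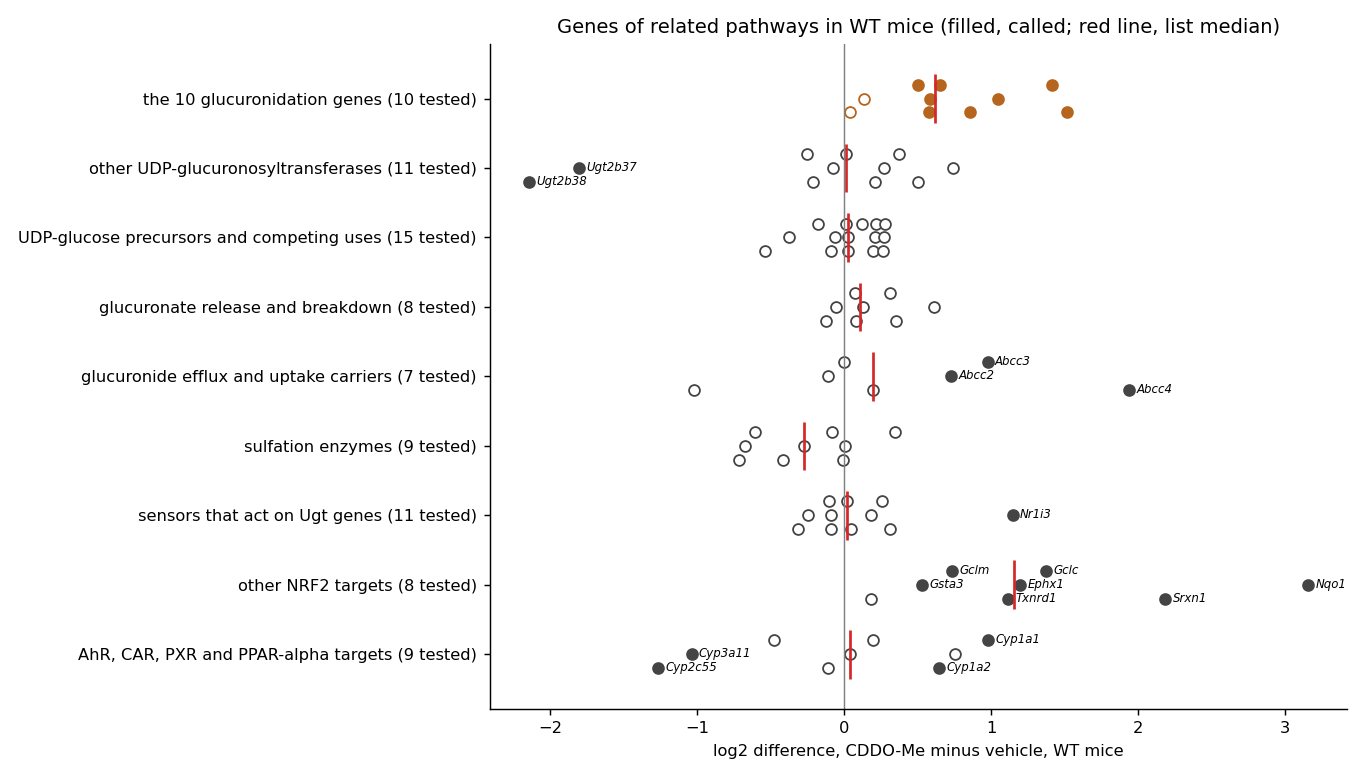
The log2 difference between CDDO-Me-treated and vehicle-treated WT mice for the 10 glucuronidation genes (brown) and the tested genes of 8 lists (black), with list medians as red lines. Filled points were called and are named, other than those of the 10 genes. The median was 0.62 for the 10 genes, 0.02 for other Ugt genes, 0.19 for carriers, -0.27 for sulfation enzymes, and 1.16 for other NRF2 targets.

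Among 8 other genes known as NRF2 targets 7 were higher in CDDO-Me-treated WT mice, with Nqo1 rising from 7.20 ± 2.38 to 64.4 ± 25.0 CPM, and Hmox1 was at 14.6 and 16.7 CPM without a call. These genes are known for the response of these mice and are given for scale. Of 11 receptors and factors that act on Ugt genes, 1 was called, Nr1i3, which encodes the receptor CAR. Nr1i3 was at 182.4, 95.9, 179.5, 209.9, and 212.7 CPM in vehicle-treated and at 464.5, 340.7, 444.4, 386.8, and 321.7 CPM in CDDO-Me-treated WT mice, with a log2 difference of 1.15 (adjusted p = 0.00398 by edgeR). In Nrf2-knockout mice it was lower under both treatments, at 54.7 ± 31.5 CPM under vehicle and 66.2 ± 28.1 CPM after CDDO-Me. Genes that other receptors are known to control moved in both directions in WT mice, with Cyp1a1 (1.70 to 3.36 CPM) and Cyp1a2 (784 to 1233 CPM) higher and Cyp3a11 (8331 to 4085 CPM) and Cyp2c55 (39.5 to 16.6 CPM) lower. The calls of Nr1i3, Cyp1a1, Cyp1a2, Cyp3a11, and Cyp2c55 on treatment of WT mice, and that of the NRF2 target Gsta3, were lost in the fit of all 30 libraries, and that of Cyp1a2 also in 5 of 10 fits without 1 mouse. Cyp2b10, a target of CAR, was not called on treatment of WT mice (22.4 to 16.1 CPM). It was lower in vehicle-treated Nrf2-knockout mice, at 5.48 CPM (log2 difference from WT mice -2.00, adjusted p = 0.0141 by edgeR), and after CDDO-Me it was at 20.25 CPM there without a call.

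Over the 30 libraries, the profiles of most of the 10 genes resembled each other. Pearson's r of log2 CPM was 0.985 between Ugt2b35 and Ugt2b5, 0.975 between Ugt2b36 and Ugt2b5, and 0.946 between Ugdh and Ugt2b35, whereas Ugt1a1 and Ugdh had an r of 0.386. These values hold the differences between the 6 groups, since libraries of a group share genotype and treatment. Within groups, as deviations from the group means, r was 0.836 between Ugt2b35 and Ugt2b5 and 0.136 between Ugdh and Ugt2b35. The profile of Slc35d1 was hardly related to that of Ugdh within groups, with an r of -0.104, beside 0.884 over all libraries.

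Of 15000 other genes, the one most like Ugdh over the 30 libraries was Creg1 (r = 0.967), followed by Gstm1 (0.964) and Ftl1 (0.961). The closest to Slc35d1 was Txnrd1 (0.966), followed by Esd and Ubap1. For Ugp2 it was Akr1c14 (0.915), and for Ugt1a1 it was Slco1b2 (0.785), the lowest first value of the 10 genes. For Ugt1a6b it was Aox1 (0.97), for Ugt2b1 Slc22a30 (0.929), for Ugt2b34 Meig1 (0.937), and for Ugt2b36 Gsta3 (0.976). Gm18635 was the closest to both Ugt2b35 (0.99) and Ugt2b5 (0.981). Pgrmc1 was among the first 3 genes for Ugt2b34, Ugt2b35, Ugt2b36, and Ugt2b5.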

How the data were processed

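Poly(A) RNA of 30 mouse livers was sequenced as strand-specific, paired-end reads of 50 bases. Per the study's methods, the authors checked reads with fastp, aligned them to mm10 with STAR 2.7.7, and counted them with its GeneCounts option over GENCODE M23, keeping the strand of the library. The deposited counts are whole numbers without normalization. Reads on several genes (1.05% to 1.36% of reads) or positions (10.5% to 16.9%) are not counted, which lowers counts of genes with near copies. Symbols and positions are those of GENCODE M21 (GRCm38) for 55154 of 55335 genes.

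Pairs of labelled groups were compared on their own libraries alone with edgeR 4.0.16 (R 4.3.3), filterByExpr, trimmed-mean normalization, the legacy quasi-likelihood F-test, and Benjamini-Hochberg adjustment over all genes tested. Differences between responses used all 30 libraries. SE is the log2 difference divided by the square root of F. CPM are scaled over all libraries, and log2 CPM for correlations has a prior count of 2. The fits were tested on simulated data, and no outcome of those tests is reported here. The members and lists were chosen with earlier results of these data known. Named were the members, list genes called in any comparison, Nfe2l2, Keap1, and Nqo1, and the 3 genes most like each member. Others were chosen after their values were seen. Alternatives were DESeq2 1.42.0, upper-quartile normalization, the edgeR 4 fit, other filters, other libraries or thresholds in the fit, the replicate number as a block, each mouse left out, and, added after seeing the data, libraries with high Arntl alone or the side of Arntl as a covariate. Dates of isolation, a covariate in the study, did not enter these fits, as the labels do not give them. Whether these dates match the split in Arntl among C151S and Nrf2-knockout libraries was not tested. Where separate cages or litters are not stated, p-values measure the spread between these mice. Counting intervals cover counting error only. Some genes of the lists are not reported here.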

Additional observations from a re-analysis of the deposited data

Results flagged for a closer look

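Differences between the responses of 2 genotypes, tested as a contrast in a fit of all 30 libraries, were flagged for 3 genes. As log2 values, the WT response was above the C151S response by 1.85 for Ugdh, 1.02 for Slc35d1, and 1.51 for Ugt2b35, and above the Nrf2-knockout response by 1.36 for Ugdh and 0.84 for Slc35d1. For each of these 3 genes the contrast with C151S mice kept its call in each of 20 fits without 1 mouse.

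Of 60 sets of 5 mice (10 genes in 6 groups), 3 had a mouse whose gap to the nearest other exceeded 0.71 of the range of its group, and chance flags about 1 in 20 such sets. These were C151S CDDO-Me replicate 3 for Ugt1a6b (31.8 CPM) and for Ugt2b35 (229 CPM), and WT vehicle replicate 1 for Ugt2b5 (1030 CPM), each the highest of its group. Replicate 3 was also the highest of its group for Ugt1a1, Ugt2b1, Ugt2b34, Ugt2b36, and Ugt2b5. That library had low Arntl, and without it the log2 difference of Ugt2b35 between CDDO-Me-treated and vehicle-treated C151S mice was -0.28 in place of -0.09.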

How the results depend on the processing

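Of the 12 comparisons, 9 kept a count of called glucuronidation genes within 1.5 times in every alternative other than leaving out mice. For C151S against Nrf2-knockout mice under CDDO-Me (3), DESeq2 and the fit of all 30 libraries gave 5. For the difference of responses between WT and Nrf2-knockout mice (2), the 4 groups alone, DESeq2, upper-quartile normalization, and the Arntl covariate gave 4, and no filter on low counts gave 1. Libraries with high Arntl alone gave 0 for C151S against Nrf2-knockout mice under vehicle (5) and CDDO-Me (3). In WT mice after CDDO-Me (8), the fit of all 30 libraries gave 6, without Ugp2 (adjusted p = 0.323) and Ugt2b36 (adjusted p = 0.181). The causes were not tested.

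With the replicate number as a block, C151S against Nrf2-knockout mice gave 0 under vehicle and 0 under CDDO-Me, the difference of responses between WT and Nrf2-knockout mice gave 0, and WT mice after CDDO-Me gave 7. Under the block, C151S against WT mice lost Ugt2b34 under vehicle (adjusted p = 0.0545) and gained Ugp2 under CDDO-Me (0.0173), and Ugp2 was lost in WT mice after CDDO-Me (0.0633). Ugdh and Slc35d1 had an adjusted p of 0.0922 for that difference of responses, Ugdh of 0.06 and Ugt2b35 of 0.0787 for C151S against Nrf2-knockout mice under vehicle, and both differences of the Abcc4 response and Gys2 in vehicle-treated Nrf2-knockout mice were not called. Same-numbered deviations correlated from -0.338 to 0.491 over 9 comparisons, at most 3 of 5 pairs (Nrf2-knockout) best with their own number. A link of number to batch was not tested.

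With 1 mouse left out, the counts ranged from 6 to 8 in WT mice after CDDO-Me, from 0 to 0 in C151S and in Nrf2-knockout mice, from 1 to 6 for C151S and from 8 to 8 for Nrf2-knockout against WT mice under vehicle, from 7 to 9 and from 9 to 10 for the same under CDDO-Me, from 2 to 5 and from 1 to 3 for C151S against Nrf2-knockout mice under vehicle and CDDO-Me, and from 3 to 3, from 1 to 2, and from 0 to 0 for the differences of responses.

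Counts over all genes tested were 377 in WT mice after CDDO-Me, 580 without a threshold on the fold change, and 147 in the fit of all 30 libraries. In C151S mice after CDDO-Me they were 13, and 124 by DESeq2, 7 with upper-quartile normalization, 23 without a filter, 1 with at least 10 counts in every library, 2 with the replicate block, 0 with high Arntl alone, 2 with the Arntl covariate, and 34 in the fit of all 30. In Nrf2-knockout mice they were 0, 43 by DESeq2, and 11 in the fit of all 30. For C151S against WT mice under vehicle they were 675, and 1066 by DESeq2, 1160 without a threshold, 2030 with high Arntl alone, and 382 in the fit of all 30, and under CDDO-Me 692, 1203 by DESeq2, and 294 with high Arntl alone. For Nrf2-knockout against WT mice under vehicle they were 1462, and 2307 without a threshold. For C151S against Nrf2-knockout mice under vehicle they were 50, and 193 by DESeq2, 79 without a filter, 8 with the block, 4 with high Arntl alone, 84 with the Arntl covariate, and 99 in the fit of all 30, and under CDDO-Me 23, 131 by DESeq2, 35 without a filter, 9 with the block, 0 with high Arntl alone, and 126 in the fit of all 30. For the differences of responses they were 72 between WT and C151S mice, 112 by DESeq2, and 40 with high Arntl alone, then 40 between WT and Nrf2-knockout mice, 81 by DESeq2, 23 with the block, and 22 with high Arntl alone, and 2 between the mutants, with 1 under the block and 0 with the 4 groups alone, at least 10 counts in every library, or high Arntl alone.

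Changes of sign were found for uncalled log2 differences alone. With upper-quartile normalization these were, in C151S mice after CDDO-Me, Slc35d1 (-0.0020) and Ugt2b5 (-0.0116), and, for C151S against Nrf2-knockout mice under vehicle, Ugt1a1 (-0.0484). With the Arntl covariate they were Ugt2b5 in C151S mice after CDDO-Me (-0.0560) and Ugt1a1 for C151S against Nrf2-knockout mice under vehicle (-0.0036). With high Arntl alone they were Ugt2b35 in C151S mice (0.0979), Ugt2b34 (-0.0330) and Ugt2b35 (-0.0456) in Nrf2-knockout mice, Ugp2 for C151S (-0.1774) and Ugt1a1 for Nrf2-knockout (0.0115) against WT mice under vehicle, Ugt1a1 for C151S against Nrf2-knockout mice under vehicle (-0.1937) and CDDO-Me (-0.1706), and, for the difference of responses between the mutants, Ugp2 (0.0425), Slc35d1 (0.0468), Ugt2b34 (0.2101), and Ugt2b35 (0.1361). With 1 mouse left out, Ugt1a1 ranged from -0.0471 to 0.1253 in WT mice after CDDO-Me. In C151S mice, Slc35d1 ranged from -0.0348 to 0.1010, Ugt1a1 from -0.1995 to 0.0930, Ugt2b35 from -0.2825 to 0.1572, Ugt2b36 from -0.1767 to 0.0396, and Ugt2b5 from -0.0692 to 0.1919. In Nrf2-knockout mice, Ugt1a6b ranged from -0.1128 to 0.0476, Ugt2b36 from -0.2844 to 0.0656, and Ugt2b5 from -0.1342 to 0.0290. Ugp2 ranged from -0.0651 to 0.2667 for C151S against WT mice under vehicle, and Ugt1a1 from -0.1336 to 0.1089 for C151S against Nrf2-knockout mice under vehicle and from -0.0548 to 0.2336 for the difference of responses between WT and C151S mice. For the difference between the mutants, Ugp2 ranged from -0.3242 to 0.0329, Ugt2b36 from -0.1489 to 0.1998, and Ugt2b5 from -0.0079 to 0.2761.

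With 5 mice per group and at least 23667068 counts per library, the spread between mice and not counting error limits these comparisons for the 10 genes, whose lowest count in any library was 418. Shared sequence limits Ugt1a1, Ugt1a6b, and Ugt2b5.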
